A study of Mus musculus with 12 samples.

Results

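The genes described here are 10 genes of the major histocompatibility complex (MHC) class I antigen presentation pathway, chosen by name: *H2-K1*, *H2-D1*, *B2m*, *Tap1*, *Tap2*, *Tapbp*, *Psmb8*, *Psmb9*, *Psmb10* and *Nlrc5*. The 10 were chosen with earlier results of these data known. All 10 were present among the 54838 genes of the raw count table. Whole-liver RNA-seq had been done on 12 mice of the C57BL/6J strain, with 3 biological replicates in each of 4 groups. For 7 days the drinking water was plain or held ZnSO4 at 25 mM, after which each mouse was given phosphate-buffered saline (PBS) or 200 µg of the synthetic glucocorticoid dexamethasone (Dex) by injection, and the liver was collected after 2 h. Mice on plain water form the groups water-PBS, the control, and water-Dex, and mice on ZnSO4 water form the groups zinc-PBS and zinc-Dex. The comparisons ask how Dex, zinc and their combination change liver transcripts. No group carried a transgene or a deletion, all livers came from 1 inbred strain, and the study's methods give female mice of 8 to 14 weeks.

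Class I molecules show fragments of the cell's own proteins at the cell surface to CD8+ T cells. Proteins are cut by the proteasome, and after interferon exposure 3 of its catalytic subunits can be replaced by the immunoproteasome subunits encoded by *Psmb8*, *Psmb9* and *Psmb10*. The peptides are pumped into the endoplasmic reticulum by the TAP transporter, a dimer of TAP1 and TAP2, and are loaded with the help of tapasin (*Tapbp*) onto a heavy chain (*H2-K1*, *H2-D1*) paired with the light chain β2-microglobulin (*B2m*). NLRC5 has no DNA-binding domain of its own and acts as a transactivator of class I genes through the RFX, ATF/CREB and NF-Y proteins bound at the X and Y boxes of their promoters, while IRF and STAT proteins relay interferon signals to the same genes. Most liver RNA comes from hepatocytes, and Kupffer cells, sinusoidal endothelial cells and lymphocytes use the same pathway.

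On mm10 (GRCm38) coordinates, 7 of the 10 genes lie on chromosome 17, inside or beside the MHC. *Tapbp* (ENSMUSG00000024308) spans chr17:33915899-33929292, *H2-K1* (ENSMUSG00000061232) chr17:33996017-34000347 and *H2-D1* (ENSMUSG00000073411) chr17:35262730-35267499. *Psmb9* (ENSMUSG00000096727, chr17:34181987-34187764), *Tap1* (ENSMUSG00000037321, chr17:34187553-34197225), *Psmb8* (ENSMUSG00000024338, chr17:34197721-34201454) and *Tap2* (ENSMUSG00000024339, chr17:34203527-34216321) are neighbours in that order. *B2m* (ENSMUSG00000060802) lies at chr2:122147686-122153083, *Nlrc5* (ENSMUSG00000074151) at chr8:94434356-94527272 and *Psmb10* (ENSMUSG00000031897) at chr8:105935735-105938444. *Psmb9* and *Tap1* are transcribed away from each other, and their annotated exons share 212 bases on opposite strands. Whether the counting used strand is not given in the sources used here, so reads from those bases cannot be assigned to either gene with certainty.

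Promoter sequences are shown for the pair of genes that moved with Dex, *Tap1* and *Psmb9*, and, for contrast, for the 3 chain genes that were not called and for the immunoproteasome gene *Psmb8*. They are RefSeq sequences on GRCm38.p6, written 5′ to 3′ on the strand of the named gene, in lower case with motif matches in capitals. The RefSeq start sites of *Tap1* (34187556) and *Psmb9* (34187330) have 225 bases between them, so 1 stretch serves as promoter of both, and it is shown on the *Tap1* strand (chr17:34187331-34187555, plus strand). The others are the 250 bases before a start site, for *H2-K1* on the minus strand (chr17:34000334-34000583) and on the plus strand for *H2-D1* (chr17:35262844-35263093), *B2m* (chr2:122147437-122147686) and *Psmb8* (chr17:34197945-34198194).
Tap1-Psmb9: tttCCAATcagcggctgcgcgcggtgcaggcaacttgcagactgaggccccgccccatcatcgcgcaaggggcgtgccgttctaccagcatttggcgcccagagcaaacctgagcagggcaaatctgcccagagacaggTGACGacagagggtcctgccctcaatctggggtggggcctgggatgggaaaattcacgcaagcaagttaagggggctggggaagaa
H2-K1: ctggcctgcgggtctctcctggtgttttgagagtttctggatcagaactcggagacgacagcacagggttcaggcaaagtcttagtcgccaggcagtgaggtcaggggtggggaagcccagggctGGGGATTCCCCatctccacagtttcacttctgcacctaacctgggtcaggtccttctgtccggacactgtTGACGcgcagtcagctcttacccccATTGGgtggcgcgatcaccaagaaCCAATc
H2-D1: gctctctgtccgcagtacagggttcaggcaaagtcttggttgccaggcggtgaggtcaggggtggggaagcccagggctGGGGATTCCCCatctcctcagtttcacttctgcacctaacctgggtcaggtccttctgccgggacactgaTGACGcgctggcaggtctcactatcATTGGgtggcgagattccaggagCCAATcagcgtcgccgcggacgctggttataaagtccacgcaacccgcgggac
B2m: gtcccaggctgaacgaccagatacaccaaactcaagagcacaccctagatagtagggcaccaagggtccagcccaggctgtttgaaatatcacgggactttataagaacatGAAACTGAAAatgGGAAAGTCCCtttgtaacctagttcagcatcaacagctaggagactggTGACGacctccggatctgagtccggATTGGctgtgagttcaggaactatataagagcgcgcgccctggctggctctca
Psmb8: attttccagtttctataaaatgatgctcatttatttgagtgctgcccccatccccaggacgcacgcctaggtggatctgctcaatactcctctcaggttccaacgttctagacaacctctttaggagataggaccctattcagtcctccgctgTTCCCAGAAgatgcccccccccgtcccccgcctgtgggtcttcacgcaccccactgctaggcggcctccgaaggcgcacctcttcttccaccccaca

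The capitals mark matches, on either strand, to an interferon-stimulated response element (GAAANNGAAA), a gamma-activated site (TTCNNNGAA), a κB element, the core of an X2 box (TGACG) or a Y box (CCAAT). The κB pattern is nearly palindromic, so the 2 overlapping matches in *H2-K1* and in *H2-D1* are each marked as 1 run. Windows of 300 bases around the start (250 before, 50 after) were searched for the 8 genes of the 10 that had one, which leaves out *Tap2* and *Nlrc5*, and for all 32851 mouse promoter windows. A κB match was found in *H2-K1*, *H2-D1* and *B2m*, against 8.46% of all windows and 9.55% of all genes. The *H2-K1* and *H2-D1* sequences are nearly the same around their κB and TGACG matches, so matches in these genes are not independent. TGACG was found in those 3 genes and in *Tap1* and *Psmb9*, which share 1 match, against 20.8% of windows, and CCAAT in the same 5 and *Tapbp*, against 37.4%. In *H2-K1*, *H2-D1* and *B2m* the Y box match, which reads attgg on the gene strand, begins 25 bases after the first base of TGACG, a spacing present in 31 of all windows (0.0944%) and noticed after the sequences had been read. The stretch between *Tap1* and *Psmb9* holds both words farther apart. The interferon-stimulated response element matched only in *B2m* among the 8 genes (3.44% of all windows, 3.99% of genes). The gamma-activated site matched only in *Psmb8* (8.3% of windows, 9.55% of genes). The glucocorticoid response element core ACANNNTGT matched in 0 of the 8 genes, against 6.85% of all windows and 7.9% of all genes. A match of letters is a description and not a site that was measured, and no match says only that these letters are not in this window.

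The 12 libraries held between 9091152 and 12303527 counts, and all 10 genes had enough counts to be tested in each comparison. Liver identity was clear from its defining markers, with 6 hepatocyte genes summing to between 1188000 and 1723000 normalized read counts (counts divided by a size factor per library) in each library. Most of each sum came from *Alb*. The normalization bears on the Dex comparisons, because scaling by total counts instead of by size factors moved the median log2 fold change of 9574 genes (mean of at least 50 normalized counts) by -0.21 for Dex averaged over both waters. Under that scaling, added after seeing the data, 7.3% of all tested genes were called higher and 31.5% lower with Dex. Changes are therefore given relative to the bulk of genes. Fewer cells of a type and less RNA per cell cannot be told apart in these whole livers.

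The chains of the class I molecule were by far the most abundant of the 10 in control livers. Per kilobase of annotated exon, *B2m* had 21104 ± 806 normalized counts (SD, n = 3), *H2-K1* 4867 ± 383 and *H2-D1* 2268 ± 204. *Tapbp* followed with 239.5 ± 5.9 and *Psmb10* with 187 ± 19.1, while *Psmb8* had 70.8 ± 6.17. The lowest 4 levels were 41.8 ± 6.11 for *Psmb9*, 39.997 ± 8.87 for *Tap2*, 38.0 ± 3.75 for *Tap1* and 22.5 ± 1.90 for *Nlrc5*. The 3 water-PBS mice overlapped between neighbours in this order only for *Psmb9* with *Tap2* and for *Tap2* with *Tap1*. These levels assume that all annotated exons are used, and *H2-K1* and *H2-D1* share sequence with each other and with other class I genes. Of all 50-base words in their annotated transcripts, 90.4% occur in no other gene for *H2-K1* and 87.2% for *H2-D1*, against 97.1% to 100% for the other 8.

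Dex lowered the transporter gene *Tap1* and the immunoproteasome gene *Psmb9* and left no other gene of the 10 called when averaged over water and zinc mice. Averaged over both waters (6 mice against 6), 2 of the 10 genes were called lower and 0 higher by DESeq2 at an adjusted p under 0.05. Of all 16614 genes tested, 14.6% were called lower and 15.1% higher, so that the share among the 10 was near the background. The median log2 fold change of the 10 was -0.15, against -0.02 over all tested genes, and 8 of the 10 values were below 0. With total count scaling 8 of the 10 were called lower and their median was -0.36. Of all genes tested with that scaling 31.5% were called lower, and the median was -0.24. When an absolute log2 fold change above 0.8 was asked as well, *Tap1* was the only one of the 10 left, and 5.62% of all genes were called lower. In water mice 3 of the 10 were called lower (*Tap1*, *Psmb9*, *Nlrc5*) and 0 higher, against 9.91% and 11.7% of all tested genes. In zinc mice 2 were called lower (*Tap1*, *Psmb9*) and 0 higher, against 10.1% and 12.1%. The plot of counts by library shows *Tap1* with a wide gap between the 2 injections.

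**Figure D1:**
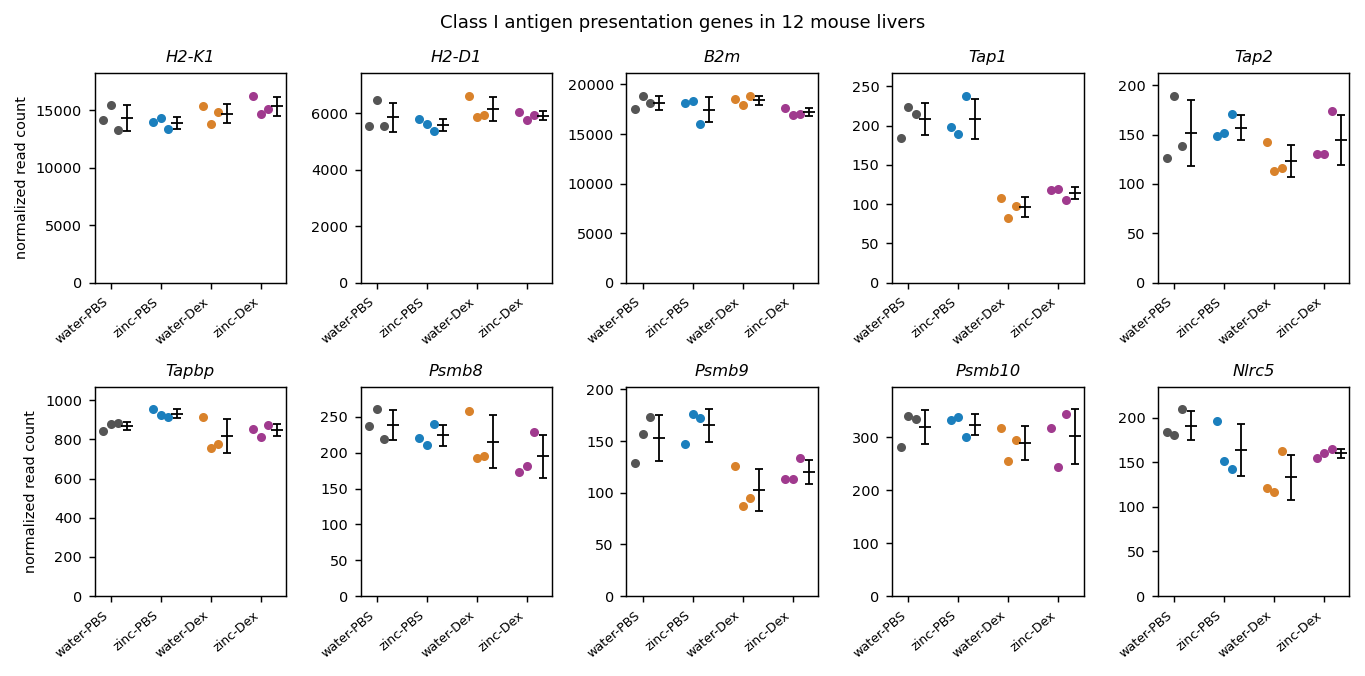
Normalized read counts (vertical axis, from 0) of the 10 class I genes in each of the 12 livers, 3 points per group, with the group mean and SD beside the points. *Tap1* lies between 184.8 and 238.1 in the 6 PBS-injected mice and between 82.96 and 118.9 in the 6 Dex-injected mice, while the groups of *H2-K1*, *H2-D1* and *B2m* overlap.

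*Tap1* encodes a subunit of the peptide transporter. Its normalized read counts were 184.8, 223.9 and 215.3 in water-PBS and 197.7, 189.7 and 238.1 in zinc-PBS. Dex-injected mice had 107.6, 82.96 and 97.95 on plain water and 118.4, 118.9 and 105.7 on zinc water. All 6 Dex-injected mice were below all 6 PBS-injected mice, with no overlap. Averaged over both waters, *Tap1* fell to 0.503 of its level (log2 fold change -0.99 ± 0.11 SE, adjusted p = 6e-17, DESeq2). The log2 fold change was -1.11 ± 0.16 in water mice (adjusted p = 2.1e-10, DESeq2) and -0.87 ± 0.16 in zinc mice (adjusted p = 6.4e-07, DESeq2). These values do not separate the 2 waters, since the interaction was 0.24 with a 95% interval from -0.20 to 0.69. *Tap1* was called lower in the averaged comparison in all 19 alternatives, with log2 values between -1.20 and -0.94.

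The partner subunit *Tap2* was not called. Its counts ran from 126.0 to 189.3 in the 6 PBS-injected mice and from 112.7 to 174.0 in the 6 Dex-injected mice. The groups overlapped over most of that range, and the averaged log2 fold change was -0.20 with a 95% interval from -0.47 to 0.06. Exons of *Tap2* share 698 bases with genes on the opposite strand. The ratio of *Tap1* to *Tap2* per kilobase, taken within each library, was 0.968 ± 0.134 in water-PBS and 0.916 ± 0.0476 in zinc-PBS. In water-Dex it was 0.538 ± 0.0404 and in zinc-Dex 0.559 ± 0.121 (mean ± SD, n = 3). The highest ratio among Dex-injected mice, 0.631, was below the lowest among PBS-injected mice, 0.817.

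Tapasin, which bridges the transporter and the empty class I molecule, was not called either. *Tapbp* counts lay between 844.3 and 955.9 in PBS-injected mice and between 756.2 and 914.8 in Dex-injected mice, and the averaged log2 fold change was -0.11 with an interval from -0.24 to 0.01. It was called with total count scaling and without the first water-Dex mouse, which had the highest *Tapbp* count of its group (adjusted p = 0.033, DESeq2).

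**Figure D2:**
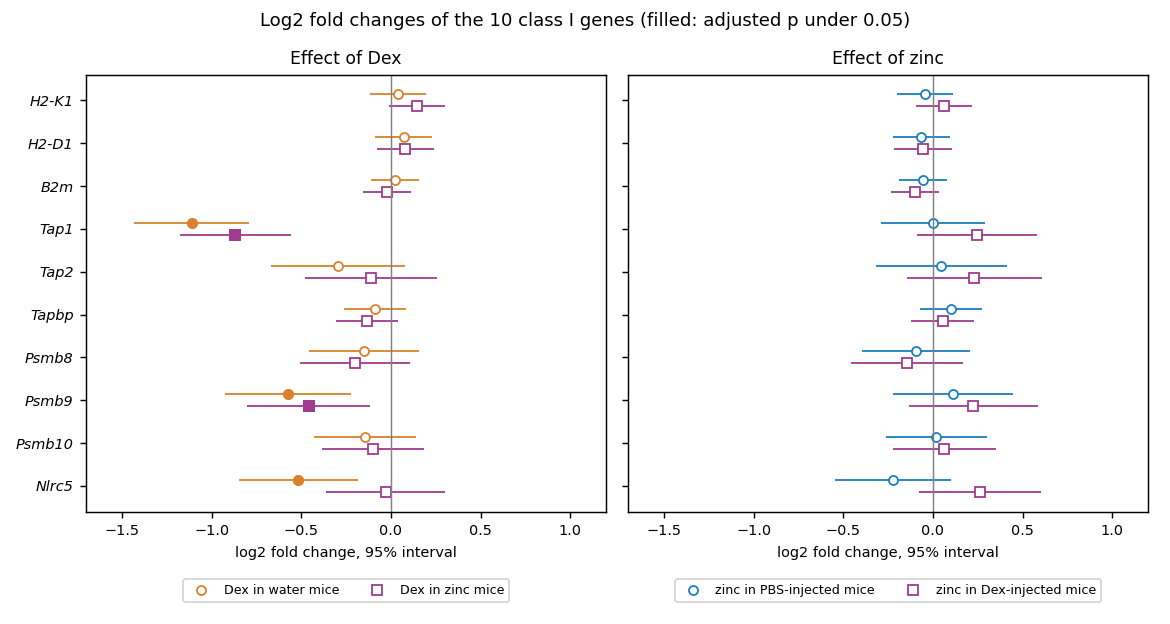
Log2 fold changes (horizontal axis) of the 10 genes with their 95% intervals, for Dex in water and in zinc mice on the left and for zinc in PBS-injected and in Dex-injected mice on the right. Filled symbols have an adjusted p under 0.05 and are seen for *Tap1* and *Psmb9* with Dex in both waters and for *Nlrc5* with Dex in water mice, and no symbol is filled for zinc.

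*Psmb9* encodes the inducible subunit β1i of the immunoproteasome. Its counts were 129.2, 156.5 and 173.5 in water-PBS and 147.1, 176.6 and 172.0 in zinc-PBS. Dex-injected mice had 125.9, 87.21 and 94.98 on plain water and 113.0, 113.3 and 133.6 on zinc water. Dex-injected mice lay below PBS-injected mice within each water, by a narrow gap in water mice, and the highest zinc-Dex value exceeded the lowest water-PBS value. Averaged over both waters the log2 fold change was -0.52 ± 0.13 SE, a fold of 0.699 (adjusted p = 0.00029, DESeq2). It was -0.57 ± 0.18 in water mice (adjusted p = 0.0098, DESeq2) and -0.46 ± 0.18 in zinc mice (adjusted p = 0.042, DESeq2), with an interaction of 0.11 and an interval from -0.38 to 0.61. The averaged call was kept in each of the 19 alternatives. In water mice the adjusted p by DESeq2 rose to between 0.055 and 0.10 without water-PBS mouse 2 or 3 or without water-Dex mouse 2 or 3, and in zinc mice it passed 0.05 in 10 of 20 alternatives and reached 0.19.

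The other immunoproteasome genes were not called. *Psmb8*, whose product is the subunit β5i, ranged from 211.5 to 261.2 in PBS-injected and from 172.7 to 258.9 in Dex-injected mice. Its averaged log2 fold change was -0.18, with an interval from -0.39 to 0.04. *Psmb10*, which encodes β2i, ranged from 281.4 to 340.4 and from 243.3 to 343.1, and its log2 fold change was -0.12 with an interval from -0.32 to 0.08. Both genes overlapped between PBS-injected and Dex-injected mice. For *Psmb8* the overlap came from water-Dex mouse 1 (258.9) and zinc-Dex mouse 3 (229.7). The other Dex-injected mice, at 172.7 to 195.9, were below all PBS-injected mice. For *Psmb10* only water-Dex mouse 2 (254.2) and zinc-Dex mouse 2 (243.3) were below all PBS-injected mice. With total count scaling the values of *Psmb8*, *Psmb10* and *Tap2* were -0.39, -0.33 and -0.41, and these genes were then called.

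The 3 subunits that the immunoproteasome replaces were called in the opposite direction, by small amounts. *Psmb6* (β1) had a log2 fold change of 0.16 ± 0.06 SE, *Psmb7* (β2) of 0.17 ± 0.07 and *Psmb5* (β5) of 0.22 ± 0.08, with adjusted p of 0.024, 0.042 and 0.024 in this order by DESeq2. Scaled by total counts, *Psmb6*, *Psmb7* and *Psmb5* took log2 values of -0.05, -0.04 and 0.0047, so their direction rests on the size factors. The calls were also not firm, and were lost in 10 of 19 alternatives for *Psmb6*, 12 for *Psmb7* and 9 for *Psmb5*, single left-out libraries among them. Within a library the scaling cancels. The ratio of *Psmb9* to *Psmb6* per kilobase was 0.0627 to 0.101 in water-PBS and 0.0761 to 0.0953 in zinc-PBS. It was 0.0402 to 0.0612 in water-Dex and 0.0522 to 0.0622 in zinc-Dex, so that each Dex-injected mouse was below each PBS-injected mouse, by a narrow gap at 0.0622 and 0.0627. The ratio of *Psmb10* to *Psmb7* was 1.02 ± 0.133 in water-PBS, 1.05 ± 0.0508 in zinc-PBS, 0.82 ± 0.111 in water-Dex and 0.865 ± 0.137 in zinc-Dex (mean ± SD, n = 3). The 2 injections overlapped only through zinc-Dex mouse 3, at 1.0. The other Dex-injected mice, at 0.692 to 0.893, were below the lowest PBS-injected mouse, at 0.916. That of *Psmb8* to *Psmb5* overlapped only through water-Dex mouse 1, at 0.231. The other Dex-injected mice had 0.139 to 0.206, and the PBS-injected mice 0.223 to 0.247. Only 45.9% of the 50-base words of *Psmb5* occur in no other gene, which leaves its level uncertain.

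**Figure D3:**
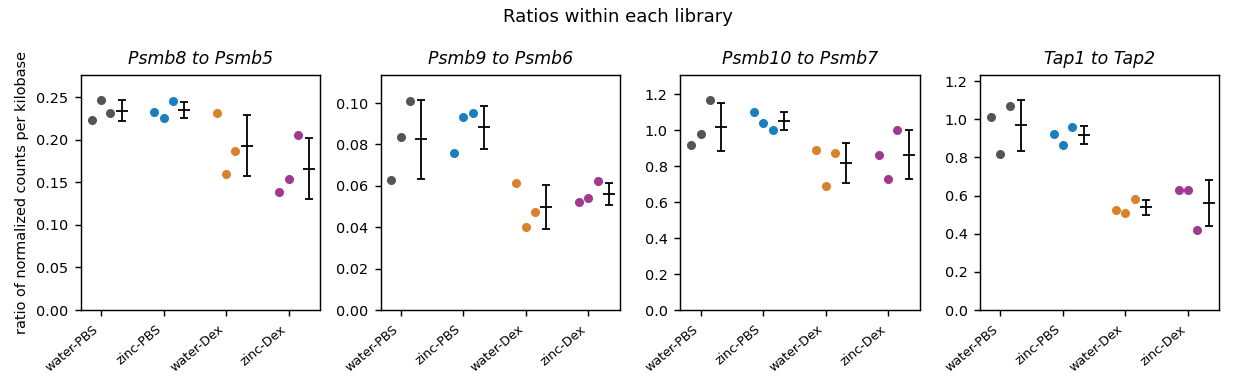
Ratios of normalized counts per kilobase within each library (vertical axes, from 0), for each immunoproteasome subunit over the subunit it replaces and for *Tap1* over *Tap2*, with the group mean and SD beside 3 points per group. The ratio of *Tap1* to *Tap2* is 0.42 to 0.631 in Dex-injected and 0.817 to 1.07 in PBS-injected mice, and that of *Psmb9* to *Psmb6* also separates the 2 injections.

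The 2 heavy chains and the light chain had narrow intervals around 0. *B2m* ran from 15992 to 18867 normalized counts over the 12 livers, *H2-K1* from 13252 to 16274 and *H2-D1* from 5379 to 6622. Averaged over both waters, the log2 effect of Dex on *B2m* was -0.00076 with a 95% interval from -0.10 to 0.09. For *H2-K1* it was 0.09 (interval -0.02 to 0.20) and for *H2-D1* 0.08 (interval -0.04 to 0.19). PBS-injected and Dex-injected mice overlapped for each of these genes. These values are relative to the bulk of genes, and with total count scaling they were -0.21 for *B2m*, which was then called, -0.12 for *H2-K1* and -0.14 for *H2-D1*.

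*Nlrc5* encodes the class I transactivator. It read 183.8, 180.2 and 209.8 in water-PBS and 196.8, 151.2 and 143.0 in zinc-PBS. Dex-injected mice had 120.8, 117.0 and 162.3 on plain water and 155.3, 160.0 and 165.3 on zinc water. The 3 water-Dex mice were below the 3 water-PBS mice, while the 3 zinc-Dex mice fell inside the range of the zinc-PBS mice. The log2 fold change with Dex was -0.52 ± 0.17 SE in water mice (adjusted p = 0.015, DESeq2) and -0.03 ± 0.17 in zinc mice (adjusted p = 0.94, DESeq2). The interaction was 0.49 with an unadjusted 95% interval from 0.02 to 0.96, and it did not pass the correction over all genes (adjusted p = 1, DESeq2). Averaged over both waters the value was -0.27 ± 0.12 (adjusted p = 0.07, DESeq2), and it was called by edgeR (adjusted p = 0.04), with total count scaling, without zinc-PBS mouse 3 and without water-Dex mouse 3 (adjusted p = 0.046 and 0.017, DESeq2). The call in water mice was lost without water-PBS mouse 3, water-Dex mouse 1 or water-Dex mouse 2, with adjusted p between 0.10 and 0.12 by DESeq2.

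Zinc alone changed none of the 10 genes past the threshold. In PBS-injected mice DESeq2 called 0 of the 10, against 0.302% of all tested genes in either direction, and in Dex-injected mice 0 of the 10 against 1.35%. Averaged over both injections (6 mice against 6) it called 0 of the 10 against 2.54%, and for the interaction of zinc and Dex 0 of the 10 against 0.0866%. By edgeR these counts were 0 of the 10 as well. At an unadjusted p under 0.05 there were 0 of the 10 for zinc in each of the 3 comparisons, and only *Nlrc5* for the interaction. Of all tested genes, DESeq2 gave 1535 of 11829 at that p for zinc averaged over both injections. For the interaction it gave 401 of 10395. At the shares called after adjustment, the background would give few calls among 10 genes. Averaged over both injections the values lay between -0.12 for *Psmb8* (interval -0.34 to 0.10) and 0.17 for *Psmb9* (interval -0.08 to 0.42), with a median of 0.03. For *Tap1* the zinc effect was 0.12 with an interval from -0.10 to 0.35. The intervals were narrowest for *B2m* (-0.17 to 0.02), *H2-D1* (-0.17 to 0.05) and *H2-K1* (-0.10 to 0.12).

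Against the control group, the combination of zinc and Dex lowered *Tap1*, the 1 gene of the 10 that was called. In zinc-Dex against water-PBS, 1 of the 10 genes was called lower and 0 higher, against 11.2% and 13.2% of all tested genes by DESeq2. *Tap1* had a log2 fold change of -0.87 ± 0.16 SE (adjusted p = 8.4e-07, DESeq2), with counts of 105.7 to 118.9 in zinc-Dex and 184.8 to 223.9 in water-PBS. *Psmb9* was at -0.35 ± 0.18 (adjusted p = 0.15, DESeq2), *Psmb8* at -0.30 ± 0.16 (adjusted p = 0.17, DESeq2) and *Nlrc5* at -0.25 ± 0.17 (adjusted p = 0.30, DESeq2). This comparison shares the zinc-Dex mice with the Dex effect in zinc mice and the water-PBS mice with the Dex effect in water mice. Since 0.10 is the smallest p that an exact permutation test can give with 3 mice per group, the calls rest on the spread that the model estimates across genes.

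Among 53 other genes of the pathway, 9 were called higher and 18 lower with Dex averaged over both waters, by DESeq2 with adjustment over all genes, against 15.1% and 14.6% of all tested genes. Their median log2 fold change was -0.08, against -0.02 over all tested genes. In water mice the counts were 3 higher and 14 lower, against 11.7% and 9.91% of all tested genes, and in zinc mice 2 higher and 12 lower, against 12.1% and 10.1%. Zinc averaged over both injections called 0 of the 53 by DESeq2, against 2.54% of all tested genes in either direction. It called 0 by edgeR, against 0.493% higher and 0.349% lower. At an unadjusted p under 0.05 there were 8 of the 53 by DESeq2, against 1535 of all 11829 tested genes. By edgeR there were 9, against 2000 of 13178. With total count scaling, Dex averaged over both waters called 0 higher and 30 lower, against 7.3% and 31.5% of all genes tested with that scaling. The counts were then 1 higher and 24 lower in water mice, against 6.84% and 22.1% of all genes. In zinc mice they were 0 higher and 24 lower, against 6.43% and 25.1%, so the called increases hold relative to the bulk of genes. Of the 18 called decreases, 14 were among the promoter factors and the interferon signalling genes. The lists were chosen with earlier results of these data known. Their counts beside the shares of all genes, here and below, are therefore a description and not a test.

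**Figure D4:**
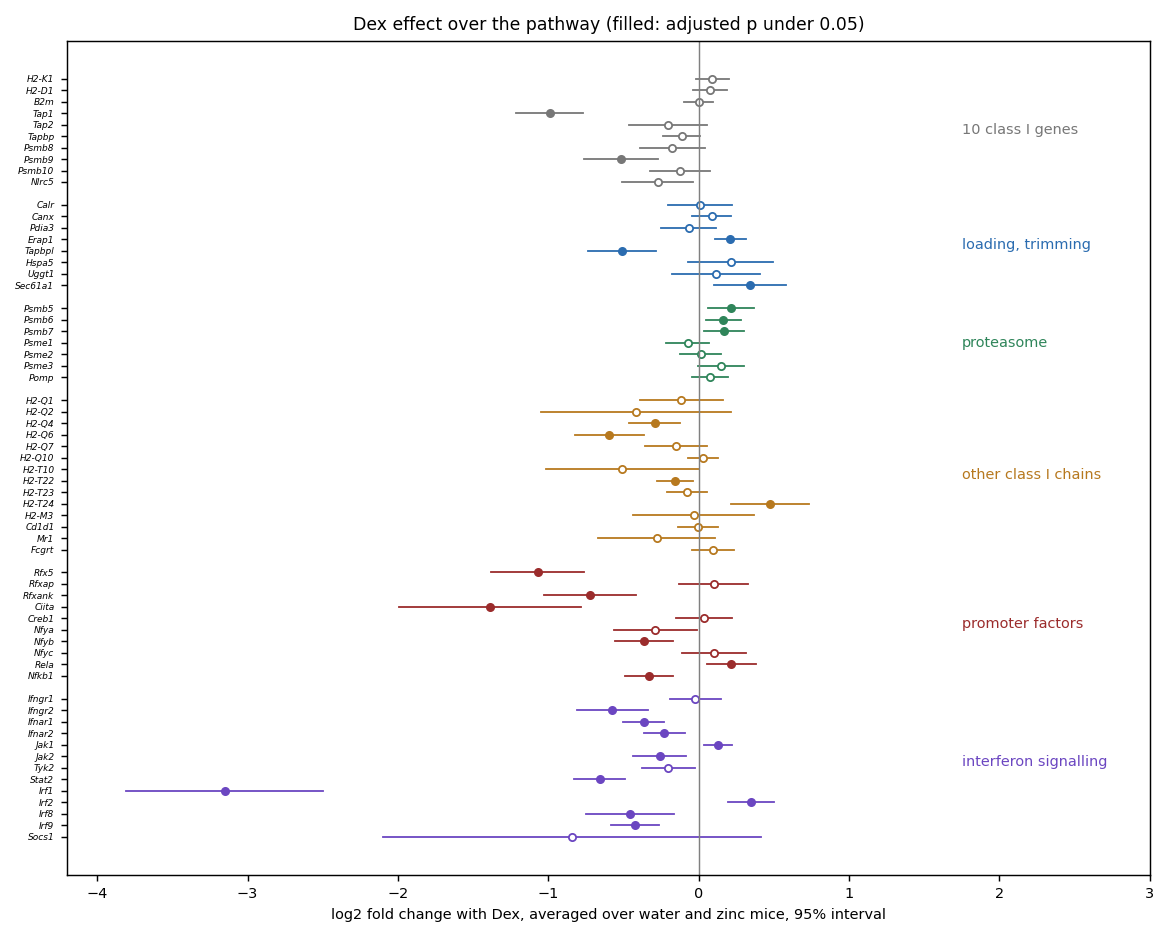
Log2 fold changes with Dex (horizontal axis), averaged over water and zinc mice, with 95% intervals for the 10 class I genes and for the other genes of the pathway in 5 lists, of which 1 is not drawn. Filled points have an adjusted p under 0.05, and *Irf1*, at -3.15, lies farthest from 0.

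Of 14 genes that receive or relay interferon signals, 9 were called lower and 2 higher (*Jak1* 0.13, *Irf2* 0.35), against 14.6% and 15.1% of all tested genes. The median of the 14 was -0.31, in a list chosen with earlier results of these data known. *Irf1*, a transcription factor induced by interferon that binds class I pathway promoters, had 466.3, 468.7 and 495.3 normalized counts in water-PBS and 1824, 516.6 and 574.9 in zinc-PBS. After Dex, the counts were 98.48, 63.81 and 84.1 on plain water and 73.86, 56.65 and 83.62 on zinc water. Each Dex-injected mouse was below each PBS-injected mouse, and the first zinc-PBS mouse stood far above the others. The averaged log2 fold change was -3.15 ± 0.33 SE (adjusted p = 1.6e-19, DESeq2), and over the alternatives it lay between -3.36 and -2.73, the latter without the first zinc-PBS mouse.

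*Stat2*, a subunit of the complex that carries type I interferon signals to the nucleus, ranged from 610.2 to 785.2 in PBS-injected mice and from 372.0 to 495.7 in Dex-injected mice. Its partner *Irf9* ranged from 352.9 to 431.6 and from 257.4 to 325.5. PBS-injected and Dex-injected mice did not overlap for either gene. The averaged log2 fold changes were -0.66 ± 0.09 SE for *Stat2* (adjusted p = 1.2e-12, DESeq2) and -0.43 ± 0.08 for *Irf9* (adjusted p = 2e-06, DESeq2). Receptor subunits were lower as well, with *Ifngr2* at -0.57, *Ifnar1* at -0.36 and *Ifnar2* at -0.23, and so were the kinase gene *Jak2* at -0.26 and *Irf8* at -0.46. *Irf8* lost its call without water-PBS mouse 2 (adjusted p = 0.063, DESeq2). *Jak2* lost it without water-PBS mouse 3, zinc-PBS mouse 2, water-Dex mouse 3 or zinc-Dex mouse 2, with adjusted p up to 0.078 by DESeq2, and *Jak1* was called in 8 of 19 alternatives. *Ifngr1*, *Tyk2* and *Socs1* did not pass the test.

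Of 10 factors that act at class I and class II promoters, 5 were called lower and 1 higher, against 14.6% and 15.1% of all tested genes. *Rfx5*, the DNA-binding subunit of the RFX complex through which NLRC5 reaches the X box, ranged from 76.66 to 98.68 in PBS-injected mice and from 31.91 to 46.70 in Dex-injected mice. There was no overlap, and the averaged log2 fold change was -1.07 ± 0.16 SE (adjusted p = 1.3e-10, DESeq2). *Rfxank*, a further subunit, ranged from 69.71 to 123.9 and from 41.48 to 57.87, with a log2 fold change of -0.72 ± 0.16. Exons of both genes overlap a gene on the opposite strand, *Rfx5* over 1471 bases and *Rfxank* over 1341. The third subunit, *Rfxap*, was at 0.10 and was not called. *Nfyb*, a subunit of the factor that binds the Y box, was at -0.36 ± 0.10, and *Nfkb1*, a subunit of the factor that binds κB elements, at -0.33 ± 0.08. The class II transactivator *Ciita* was at -1.39 ± 0.31, with 16.3 to 30.45 counts in PBS-injected and 5.076 to 12.76 in Dex-injected mice. It falls outside the abundance limit for named genes and is given because it is the fifth of the called decreases. *Rela* was the 1 called increase, at 0.22 ± 0.08, and it was called in 7 of 19 alternatives.

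**Figure D5:**
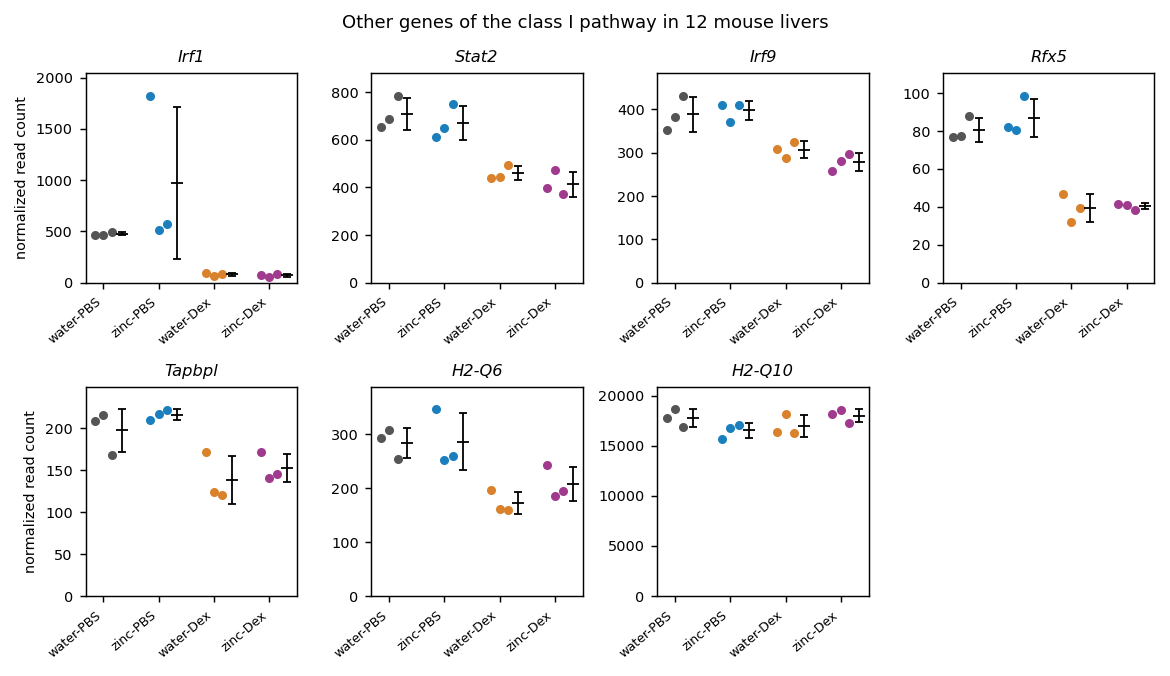
Normalized read counts (vertical axes, from 0) of 7 other genes of the class I pathway in each of the 12 livers, with the group mean and SD beside 3 points per group. *Irf1*, *Stat2*, *Irf9*, *Rfx5* and *H2-Q6* do not overlap between PBS-injected and Dex-injected mice, *Tapbpl* overlaps slightly, and the groups of *H2-Q10* overlap.

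Of 14 other class I and class I-like chain genes, 3 were called lower and 1 higher, counts near the 14.6% and 15.1% of all tested genes. *H2-Q6* ranged from 251.8 to 346.6 in PBS-injected and from 160.3 to 243.3 in Dex-injected mice, a log2 fold change of -0.59 ± 0.12 SE (adjusted p = 3.7e-06, DESeq2). *H2-Q4* was at -0.29 ± 0.09, *H2-T22* at -0.16 ± 0.06 and *H2-T24* at 0.47 ± 0.13. *H2-T22* was called in 6 of 19 alternatives, and *H2-T24* in 18. These genes are close copies of each other, and only 68.0% of the 50-base words of *H2-Q6* and 78.2% of those of *H2-Q4* occur in no other gene. By the study's methods, reads that map to several places were not counted, so reads of these genes may have been lost. *H2-Q10*, the liver-rich secreted chain and the most abundant of the list with 15709 to 18667 counts, was at 0.03 with an interval from -0.07 to 0.13, and it took a value of -0.19 under total count scaling. The non-classical chain *H2-T23* was at -0.08 (interval -0.21 to 0.05).

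Peptide loading and trimming genes moved in both directions, with 1 of 8 called lower and 2 higher, against 14.6% and 15.1% of all tested genes. *Tapbpl*, which encodes the tapasin-related editor of peptides TAPBPR, ranged from 168.0 to 221.8 in PBS-injected and from 120.7 to 171.6 in Dex-injected mice, a log2 fold change of -0.51 ± 0.12 SE (adjusted p = 9e-05, DESeq2). The aminopeptidase *Erap1*, which trims peptides in the endoplasmic reticulum, was at 0.21 ± 0.05 and the translocon subunit *Sec61a1* at 0.34 ± 0.12. Under total count scaling *Erap1* came to -0.0018. The *Sec61a1* call was lost with that scaling and without zinc-PBS mouse 1, zinc-PBS mouse 2, water-Dex mouse 3 or zinc-Dex mouse 2. The other 5 of the 8 genes were not called, among them the chaperone *Hspa5*, the most abundant of this list, with a value of 0.21 and an interval from -0.07 to 0.50, which was called without water-PBS mouse 1 (0.37) or zinc-PBS mouse 3 (0.34). Of 7 constitutive subunits and proteasome activators, the 3 catalytic subunits given above were called higher and 0 lower, against 15.1% and 14.6% of all tested genes. *Pomp*, the assembly factor and most abundant of the 7, was at 0.08.

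Markers of the cells of the liver were read beside these decreases. Of all tested genes, DESeq2 called 15.1% higher and 14.6% lower with Dex averaged over both waters. The shares were 19.9% and 21.1% by edgeR, and 7.3% and 31.5% with total count scaling. At an unadjusted p under 0.05 there were 6201 of 16614 tested genes by DESeq2 and 6447 of 13178 by edgeR. With Dex averaged over both waters, all 6 hepatocyte markers were called higher by DESeq2 and 5 by edgeR, but only 1 with total count scaling. Their summed normalized counts were 1188000 to 1418000 in PBS-injected and 1564000 to 1723000 in Dex-injected mice. *Alb* alone, with 961037 to 1349826 counts, made up most of each of these sums. Of 7 Kupffer cell markers 0 were called by DESeq2, with 0 at an unadjusted p under 0.05, and 0 by edgeR, with 1 at an unadjusted p under 0.05, while 5 were called lower with total count scaling. Their summed counts in the PBS-injected and Dex-injected mice were 4810 to 6629 and 5083 to 6256, respectively. Of 10 lymphocyte markers, 4 were called lower, among them *Ptprc*, *Cd79a* and *Ms4a1* (2 by edgeR), and 0 higher, and the sums were 260.7 to 311.4 in PBS-injected and 191.2 to 249.8 in Dex-injected mice, without overlap. Most of each sum was *Ptprc*, a gene of all leukocytes, with 143.4 to 245.7 counts, and the sums of the other 9 markers (47.98 to 76.72 in PBS-injected and 32.97 to 49.02 in Dex-injected mice) overlapped. *Cd79a* and *Ms4a1* had at most 13.54 counts in any library. Of 7 sinusoidal endothelial markers 3 were called higher and 3 lower, and 1 higher and 4 lower with total count scaling. Of 4 stellate cell markers 2 were called higher and 1 lower, and 0 higher and 1 lower with total count scaling. Of 4 cholangiocyte markers 0 were higher and 1 lower. Of 4 neutrophil markers 0 were called by DESeq2, with 1 at an unadjusted p under 0.05, and 0 by edgeR, and 1 was lower with total count scaling. Of 6 dendritic cell and class II markers 0 were called by DESeq2, with 0 at an unadjusted p under 0.05, and 0 by edgeR, also with 0 unadjusted, but their median log2 fold change differed in sign between the waters. It was -0.26 in water mice, where 0 were called, against 11.7% of all tested genes higher and 9.91% lower. In zinc mice it was 0.36, and *H2-Aa*, a class II chain gene, was called higher (0.50, adjusted p = 0.016, DESeq2), against 12.1% of all tested genes. The sums of the 6 markers were 1574 to 2603 in water-PBS and 1415 to 2013 in water-Dex, which overlap. They were 1752 to 1997 in zinc-PBS and 2273 to 2543 in zinc-Dex, which do not. For the zinc by Dex interaction 0 of the 6 were called, with 4 at an unadjusted p under 0.05, by DESeq2 and by edgeR alike. Of all tested genes, 401 of 10395 were at that p by DESeq2 and 690 of 13178 by edgeR. *H2-Aa*, *H2-Ab1*, *H2-Eb1* and *Cd74* each fell from water-PBS mouse 1 to mouse 3, so these markers are not independent of each other. With total count scaling 3 of the 6 were called lower in water mice, against 22.1% of all tested genes. In zinc mice 0 were called in either direction, against 25.1% lower and 6.43% higher. Of the markers of these 8 lists, 1 neutrophil marker was at 0 in all 3 mice of water-PBS and of water-Dex. The part of these cells in the values of *Tap1*, *Psmb9*, *Irf1* and the other genes that were lower was not tested.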

How the data were processed

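RNA of 12 mouse livers had been made into stranded single-end TruSeq libraries. Per the labels and the submitters' processing notes, the authors trimmed reads with Trimmomatic, aligned them to mm10 with HISAT2 2.0.4 and counted them per gene with featureCounts; the deposited values are raw counts, with no normalization, in 1 column per mouse. By the study's methods, reads that map to several places were not counted. The annotation release and strand setting are not given in the sources used here. Symbols and coordinates came from GENCODE for 54809 of 54838 identifiers, and promoters from RefSeq (GRCm38.p6).

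Counts were tested with DESeq2 1.42.0 in R 4.3.3, following the study's choice of tool: 1 fit of all 12 libraries with 1 coefficient per group, Wald tests of unshrunken fold changes, Benjamini-Hochberg adjustment over all genes, and a call at an adjusted p under 0.05. Intervals are 95% intervals from the SE. The script was tested on simulated data. The members and lists were chosen with earlier results of these data known. Beside the 10 genes, the text names from the pathway lists the genes that an averaged comparison called, if their mean normalized count was 50 or more, the most abundant gene of each list and the 3 catalytic proteasome subunits; other genes of the lists are named after their values were seen. Alternatives were edgeR 4.0.16 (quasi-likelihood test), TMM factors, a low count filter (10 counts in 3 libraries), no independent filtering, no Cook's distance filter, a fold threshold (absolute log2 above 0.8), only the libraries compared, a replicate block, and leaving out each library. Total count scaling, the ratios and the motif spacing were added after the data had been seen. Same-numbered mice did not deviate together (median r of 0.026 over 18 pairs), so the numbers were not used as pairs. The values of 2 genes of these lists are not reported here singly and stand only in the counts and sums over their lists.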

Additional observations from a re-analysis of the deposited data

How the results depend on the processing

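Of 500 values recomputed for the comparisons and the order of the genes, 475 were scored as the same. A count of genes was scored so within a set ratio, and a median log2 fold change within 0.151. The main medians of the 10 genes lay between -0.149 and 0.074, so a median that moved to 0 was still scored as the same. The totals therefore say little about the medians. The order was scored so if no gene moved. It was taken from the water-PBS mice alone, so leaving out a mouse of another group could not change it. Those values are counted as the same nonetheless. Of 2146 further values, of single genes and of motif matches, 2024 were scored as the same. For a single gene this means an unchanged call, and an unchanged sign only where it was called. *Tap1* was lower in each Dex comparison under all alternatives. Total count scaling, added after seeing the data, gave 5 genes of the 10 lower with a median log2 fold change of -0.34 for Dex in water mice, and 5 with -0.33 in zinc mice. Of all genes tested, 22.1% and 25.1% were then called lower, with medians of -0.21 and -0.24. The same scaling gave 7 with -0.32 for zinc plus Dex against control, where *H2-D1* turned to -0.22, and 8 with -0.36 for Dex averaged over both waters. The shares of all genes were 25.8% and 31.5%, with medians of -0.25 and -0.24. For Dex averaged over both waters this scaling also turned *Erap1* to -0.0018, *H2-Q10* to -0.19, *Jak1* to -0.084, *Psmb6* to -0.048 and *Psmb7* to -0.041. With a log2 fold change above 0.8 as well, each of the Dex comparisons kept 1 lower gene. For Dex in zinc mice the count of lower genes was also 1 with TMM factors, with no independent filtering, with only the libraries compared and with the replicate block. The cause was not tested. In each of these *Psmb9* lost its call, with an adjusted p by DESeq2 of 0.0503 with TMM factors and 0.0909 with the replicate block. Leaving out 1 library at a time gave 1 to 3 lower genes for Dex in water mice (1 without water-PBS 3 or water-Dex 2) and 1 to 2 in zinc mice (1 without water-PBS 2, zinc-PBS 2, zinc-PBS 3, water-Dex 3, zinc-Dex 1 or zinc-Dex 2). It swapped 0 to 2 neighbours in the order of levels per kilobase, which only a left-out water-PBS mouse could change, and 2 only without water-PBS 2 or 3. The replicate numbers did not mark pairs by the check in the data, and the block changed no other count, although among the other pathway genes *Jak1*, *Jak2*, *Psmb5*, *Psmb6*, *Psmb7*, *Rela* and *H2-T22* lost their calls with it. At this depth and with 3 mice per group, the 95% intervals for Dex averaged over both waters still allow decreases down to -0.47 for *Tap2*, -0.39 for *Psmb8* and -0.32 for *Psmb10*.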
